A study of Mus musculus with 4 samples.

Results

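The tumour necrosis factor (TNF) superfamily was followed in 2 fractions of mouse common lymphoid progenitors (CLP) through 39 of its genes, 24 receptors and 15 ligands, chosen by name. Of these, 36 were measured, 23 receptors and 13 ligands, among 18193 genes compared in all. Tnfrsf26, Tnfsf12 and Tnfsf13 had no probe set annotated to them alone and were not analysed here. Each gene is represented by 1 probe set, the short group of array probes that reports on a transcript, namely that with the highest mean over the 4 arrays.

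CLP are bone marrow precursors of B, T and natural killer lymphocytes. CLP_RAGhigh and CLP_RAGlow cells were sorted from the marrow of adult C57Bl6 mice aged 8 to 12 weeks, and labelled cRNA from 2000 cells per sample was hybridised to Affymetrix MOE430_2 arrays, with 2 arrays per group. The sample descriptions call the fractions GFPhigh and GFPlow, without describing the reporter or saying whether it alters a gene, and all 4 samples carry the same strain label. The replicates are labelled biological, without a statement on whether each had its own mice. The p-values therefore reflect the spread of these arrays alone, which may be technical. The number of arrays limits the precision, and an exact permutation test of 2 arrays against 2 cannot give a two-sided p below 0.333.

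Ligands of the TNF superfamily are mostly membrane proteins that act as trimers on receptors of neighbouring cells. The receptors signal through TRAF adaptors to the NF-kB transcription factors, or, where they carry a death domain, through FADD and caspases to cell death. In the lymphoid system lymphotoxin and its receptor organise lymph nodes and spleen, while BAFF and APRIL with their receptors support mature B cells and plasma cells. NF-kB has a canonical branch run by the IKK-beta kinase and an alternative branch run by the kinase NIK, which the lymphotoxin beta receptor and the BAFF receptor engage.

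None of the 36 genes passed the test between CLP_RAGhigh and CLP_RAGlow. The 3 with the smallest p belong to 1 receptor and its ligands. Ltb, which encodes the membrane-anchoring chain of lymphotoxin, had a higher mean in CLP_RAGhigh (2.28-fold, log2 difference 1.19 ± 0.35, SE, n = 2 per group). The lymphotoxin beta receptor gene Ltbr had a log2 difference of -1.06 ± 0.41, and Tnfsf14, which encodes LIGHT, another ligand of that receptor, of -1.05 ± 0.28. All differences here are CLP_RAGhigh minus CLP_RAGlow, and for these 3 genes no array of one group fell within the range of the other.

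The bases before the start of these 3 genes are shown because they form a ligand and receptor set and had the smallest p of the superfamily. They are the 250 bases before the start in RefSeq on GRCm38.p6, 5′ to 3′ on the strand of the gene, at chr17:35194257-35194506 (plus strand) for Ltb, chr17:57194182-57194431 (minus strand) for Tnfsf14 and chr6:125313886-125314135 (minus strand) for Ltbr. Capitals mark a match on either strand to a pattern of many NF-kB sites, GGGA and CC with any 4 bases between them.
Ltb: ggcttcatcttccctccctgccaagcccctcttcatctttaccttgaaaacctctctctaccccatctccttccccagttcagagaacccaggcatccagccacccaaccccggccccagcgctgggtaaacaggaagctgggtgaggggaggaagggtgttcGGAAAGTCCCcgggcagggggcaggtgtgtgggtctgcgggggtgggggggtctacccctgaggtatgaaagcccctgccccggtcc
Tnfsf14: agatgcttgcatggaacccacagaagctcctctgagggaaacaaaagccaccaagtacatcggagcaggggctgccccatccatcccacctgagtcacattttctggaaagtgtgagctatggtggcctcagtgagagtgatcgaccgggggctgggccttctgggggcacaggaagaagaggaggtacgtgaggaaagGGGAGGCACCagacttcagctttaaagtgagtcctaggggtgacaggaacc
Ltbr: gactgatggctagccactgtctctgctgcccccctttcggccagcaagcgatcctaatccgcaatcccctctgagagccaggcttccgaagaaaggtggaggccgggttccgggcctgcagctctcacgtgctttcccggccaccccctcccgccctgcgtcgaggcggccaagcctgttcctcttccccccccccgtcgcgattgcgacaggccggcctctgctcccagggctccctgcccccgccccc

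The match lay 87 to 78 bases before the start of Ltb and 51 to 42 bases before that of Tnfsf14, and Ltbr had none in this window. These letters occur in 17.6% of 32851 mouse windows of the same length and in 8 of the 29 measured superfamily genes that had a window (Ltb, Tnfrsf13b, Tnfrsf14, Tnfrsf25, Tnfrsf8, Tnfrsf9, Tnfsf11 and Tnfsf14). The pattern of many EBF1 sites, TCCC and GGGA with any 2 bases between them, occurs in 0.779% of all windows and in 0 of these 29. A match describes letters and does not show that a factor binds.

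With limma and Benjamini-Hochberg adjustment over all genes, 0 of 36 superfamily genes had an adjusted p under 0.05 in either direction, as for 0% of all genes in either direction. With the threshold on the unadjusted p instead, there was 1 gene higher in CLP_RAGhigh, Ltb, where the share over all genes was 2.35%, and 2 lower, Tnfsf14 and Ltbr, where it was 2.94%. The groups were fully separated for 5 genes with both CLP_RAGhigh arrays above and 5 with both below, which is 13.9% each way against 15.4% and 15.8% of all genes. A difference of at least 1 log2 unit was found for 1 gene upward and 3 downward, with 2.43% and 3.18% over all genes. Leaving out either CLP_RAGlow array left 0 genes upward at the unadjusted threshold, leaving out either CLP_RAGhigh array gave 2, and leaving out CLP_RAGhigh replicate 2 or CLP_RAGlow replicate 2 left 1 downward. Over all genes the upward count at that threshold was 428, and it was 211 and 304 without CLP_RAGlow replicate 1 and 2 and 805 and 649 without CLP_RAGhigh replicate 1 and 2, so it shifted the same way. The downward counts over all genes were 535 with all arrays, 681 without CLP_RAGhigh replicate 2 and 354 without CLP_RAGlow replicate 2. The counts of separated genes are near the background, and the others rest on 1 to 3 genes each. The median difference was 0.15 over the 36 genes, with the CLP_RAGhigh mean above in 22 and below in 14, and 0.0028 over all genes. For 17 of the 36, both group means lay below 3.88, the median log2 intensity of all probe sets, and 9 lay below it on every array. The fold of such dim genes depends on the background of the array, and a low value does not show that the transcript is missing.

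**Figure D1:**
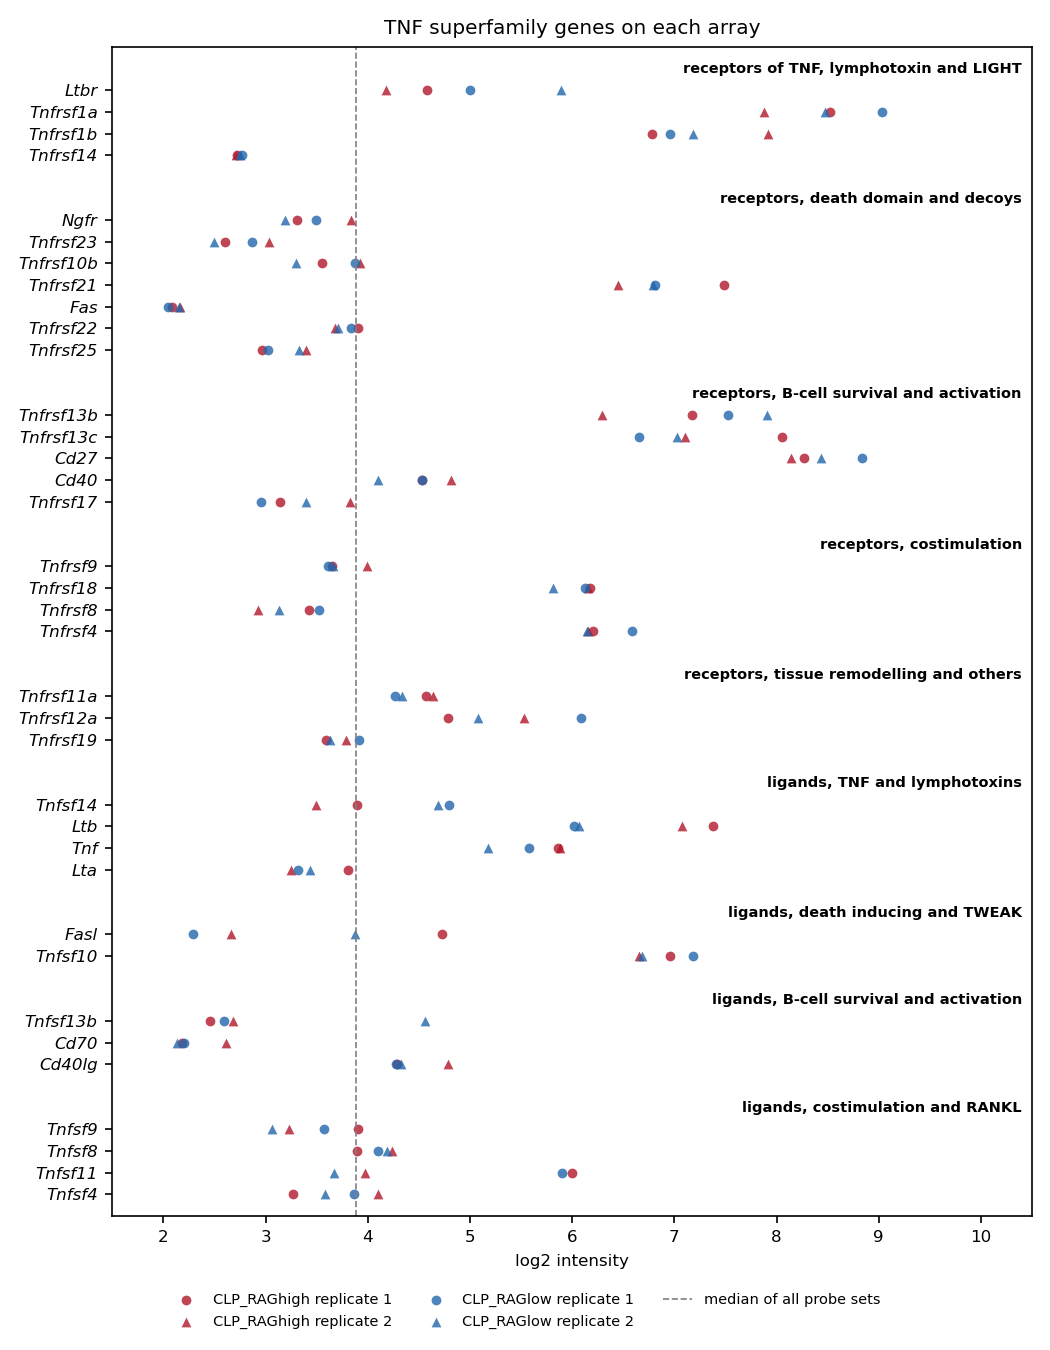
Log2 intensity (x axis) of the 36 measured TNF superfamily genes (rows, grouped by role), with 1 point per array, red for CLP_RAGhigh, blue for CLP_RAGlow, circles for replicate 1 and triangles for replicate 2, and the median of all probe sets as a dashed line at 3.88. The red points of Ltb, at 7.38 and 7.08, lie to the right of both blue points, and those of Ltbr and Tnfsf14 to the left.

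The sorted cells carried CLP genes in both groups. Flt3 had log2 intensities of 11.17 and 10.65 in CLP_RAGhigh and 10.77 and 10.77 in CLP_RAGlow, and the interleukin-7 receptor gene Il7r lay between 10.24 and 11.81 on all arrays. Of the RAG genes, after which the groups are named, Rag1 differed by 2.65 ± 0.34 and Rag2 by 0.89 ± 0.33. The other measured genes of the CLP list went both ways. Ly6d differed by 2.51 ± 0.41, Dntt by 0.06 ± 0.06, Kit by -0.28 ± 0.48 and Cd34 by -1.12 ± 0.32. Of the 8 measured genes of that list, 6 had the higher mean in CLP_RAGhigh and 2 the lower. Of 9 measured B-lineage genes 5 had an unadjusted limma p under 0.05, all higher in CLP_RAGhigh, with summed intensities of 5170 to 7280 against 1644 to 2013. Of 9 granulocyte and monocyte genes 0 did so upward and 1 downward, Csf1r, and their sums were 3503 to 3651 against 3357 to 4556. Sums of 9 T-lineage genes were 165 to 193 against 209 to 210. Those of 9 natural killer and innate lymphoid genes were 934 to 967 against 714 to 848. For 9 dendritic cell genes, Flt3 among them, they were 5671 to 6221 against 6445 to 7480. They were 1379 to 2052 against 1118 to 1315 for 8 erythroid genes, and 478 to 574 against 580 to 644 for 10 stromal genes. Such sums follow the brightest genes of a list. Nkg7, Tfrc and Pdgfrb were the brightest of the natural killer, erythroid and stromal lists. Of the T-lineage genes, Cd28 had 2.06 and 4.78 against 6.36 and 6.25. By mean, 6 T-lineage genes were higher in CLP_RAGhigh and 3 lower. These counts were 8 and 1 for natural killer, 4 and 5 for dendritic cell and 7 and 1 for erythroid genes. The 10 immediate early genes, which respond to handling, had a mean log2 intensity of 7.29 on CLP_RAGhigh replicate 1 and 5.15 to 5.67 elsewhere. Fos was at 12.27 there and between 5.17 and 7.28 on the other 3 arrays. The margin was small for some, such as Jund, at 8.58 against 8.17 to 8.52, and Egr1, at 6.48 against 4.33 to 6.28. The granulocyte gene S100a8 stood apart on CLP_RAGlow replicate 2, at 3.81 against 9.60 to 10.15.

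Among the ligands, Ltb had log2 intensities of 7.38 and 7.08 on the CLP_RAGhigh arrays and 6.01 and 6.07 on the CLP_RAGlow arrays (replicates 1 and 2 in each group, the order used throughout). Both CLP_RAGhigh arrays were higher, by more than the spread within either group (7.23 ± 0.21 against 6.04 ± 0.04, SD, n = 2 each). The limma p was 0.0162 and the adjusted p 0.813. The difference was 0.90 with an offset of 32 added to the linear values, a setting that damps differences of dim genes, and 1.04 to 1.34 when each array was left out in turn. B-lineage markers moved with Ltb as given above, and their part in its difference was not tested. In a sorted population, fewer cells expressing a gene and less RNA of it per cell cannot be told apart.

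Lta encodes the other chain of lymphotoxin, which pairs with the Ltb product on the cell surface. It had 3.81 and 3.25 in CLP_RAGhigh and 3.32 and 3.43 in CLP_RAGlow, so that the groups overlapped, with a difference of 0.15 ± 0.27 (limma, adjusted p = 1). Tnf, the inflammatory cytokine for which the family is named and a neighbour of both lymphotoxin genes on chromosome 17, had 5.86 and 5.88 against 5.58 and 5.18. Both CLP_RAGhigh arrays were above both CLP_RAGlow arrays, but the difference of 0.49 ± 0.35 did not pass (limma, adjusted p = 0.985), at 0.29 without CLP_RAGlow replicate 2.

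Tnfsf14 had log2 intensities of 3.89 and 3.50 in CLP_RAGhigh and 4.80 and 4.69 in CLP_RAGlow. Both CLP_RAGlow arrays were higher, and CLP_RAGhigh replicate 2 lay below the median of all probe sets. The limma p of 0.0108 was the smallest in the superfamily, with an adjusted p of 0.759. Since the gene is dim in CLP_RAGhigh, the difference of -1.05 became -0.38 with the offset of 32. Its other probe set gave -0.34, in the same direction, and the average of both -0.70.

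The receptor gene Ltbr had 4.58 and 4.18 in CLP_RAGhigh and 4.999 and 5.89 in CLP_RAGlow. The groups did not overlap, and CLP_RAGlow replicate 2 was the highest array. The limma p was 0.0438 and the adjusted p 0.928. With the offset the difference was -0.53, and without CLP_RAGlow replicate 2 it was -0.62. Ltbr is known from stromal and myeloid cells more than from lymphocytes. Csf1r, the receptor of a macrophage growth factor, also had a lower mean in CLP_RAGhigh, at 6.79 and 8.26 against 9.31 and 9.54. The 9 granulocyte and monocyte genes went both ways, 4 with a higher and 5 with a lower CLP_RAGhigh mean, with log2 differences such as 2.63 for S100a8, 1.77 for S100a9, 0.03 for Mpo and -0.83 for Csf3r. Of 10 stromal genes, 6 had the higher mean in CLP_RAGhigh and 4 in CLP_RAGlow. The part of these cell types in the Ltbr and Tnfsf14 values was not tested. Tnfrsf14, the receptor HVEM that LIGHT also binds, was below the median of all probe sets on every array, between 2.71 and 2.77, with a difference of -0.05 ± 0.16.

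The receptors of TNF itself are Tnfrsf1a, which carries a death domain, and Tnfrsf1b, which binds TRAF proteins directly. Tnfrsf1a had 8.53 and 7.87 in CLP_RAGhigh and 9.03 and 8.47 in CLP_RAGlow, with CLP_RAGhigh replicate 1 above CLP_RAGlow replicate 2. The groups overlapped, and the difference of -0.55 ± 0.38 did not pass (limma, adjusted p = 0.983), at -0.22 without CLP_RAGhigh replicate 2. Tnfrsf1b had 6.78 and 7.91 against 6.96 and 7.18, and both extremes were CLP_RAGhigh arrays.

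The B-cell receptors of the family had higher means in either group, and none passed the test. Tnfrsf13b encodes TACI, which binds both BAFF and APRIL, and had 7.17 and 6.29 in CLP_RAGhigh and 7.52 and 7.91 in CLP_RAGlow. The groups did not overlap, and the difference was -0.98 ± 0.44 (limma, adjusted p = 0.950), at -0.54 without CLP_RAGhigh replicate 2 and -1.43 without replicate 1. Tnfrsf13c, the receptor through which BAFF keeps mature B cells alive, had 8.06 and 7.11 against 6.65 and 7.03. Both CLP_RAGhigh arrays were higher, but replicate 2 by only a small margin, and the difference of 0.74 ± 0.45 (limma, adjusted p = 0.979) was 0.27 without CLP_RAGhigh replicate 1. Tnfrsf17, the plasma cell receptor BCMA, was dim in both groups, at 3.14 and 3.83 against 2.95 and 3.40, and overlapped.

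Cd27, a receptor of lymphoid progenitors and memory lymphocytes, had 8.27 and 8.14 in CLP_RAGhigh and 8.84 and 8.43 in CLP_RAGlow. The groups did not overlap, and the difference of -0.43 ± 0.31 did not pass (limma, adjusted p = 0.987), at -0.23 without CLP_RAGlow replicate 1. Its ligand gene Cd70 was below the median of all probe sets on every array, at 2.18 and 2.61 against 2.1997 and 2.13, and the groups overlapped. Cd40, which receives T-cell help on B cells, had 4.53 and 4.82 against 4.53 and 4.10, overlapped, and differed by 0.35 ± 0.31, with 2 further probe sets at -0.11 and 0.08. The ligand gene Cd40lg lay between 4.27 and 4.78 on all arrays and overlapped between the groups.

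Tnfsf13b, which encodes BAFF, had 2.46 and 2.68 in CLP_RAGhigh and 2.59 and 4.56 in CLP_RAGlow. Only CLP_RAGlow replicate 2 was high, and the other 3 arrays were all below the median of all probe sets. The difference of -1.01 ± 0.61 (limma, adjusted p = 0.979) was -0.021 without that array, which is also the array with low S100a8. The part of that array's other features in this value was not tested.

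**Figure D2:**
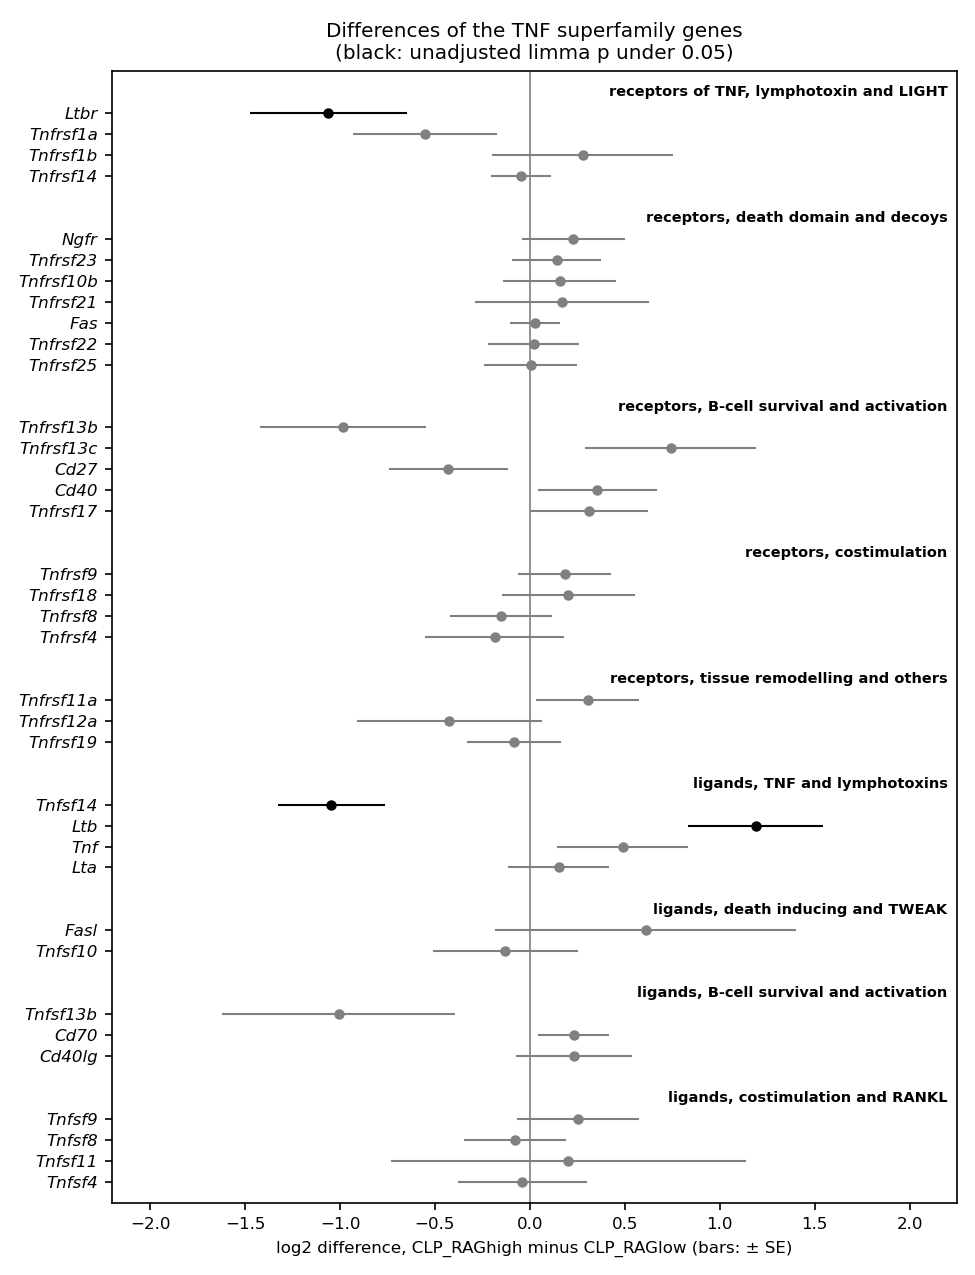
Log2 difference, CLP_RAGhigh minus CLP_RAGlow (x axis), of the 36 measured genes by role, with bars of 1 standard error from limma (n = 2 arrays per group) and black points for an unadjusted limma p under 0.05. Ltb at 1.19, Ltbr at -1.06 and Tnfsf14 at -1.05 are the black points. In the probe sets used, the 7 genes under death domain and decoys lie between 0.0050 and 0.23. Tnfrsf1a, which also carries a death domain, is shown with the TNF receptors at -0.55.

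Apart from Tnfrsf1a, whose difference of -0.55 is given above with the TNF receptors, the receptors with a death domain and the decoys that bind TRAIL without signalling had differences of 0.0050 to 0.23 over 7 genes, and in these 7 the groups overlapped. Fas, the best known death receptor, lay between 2.05 and 2.17 on all 4 arrays, below the median of all probe sets. Tnfrsf10b, the mouse receptor of TRAIL, lay between 3.30 and 3.93, and the decoy genes Tnfrsf22 and Tnfrsf23 between 2.49 and 3.90. Other probe sets gave -0.0056 for Tnfrsf10b, -0.02 and -0.21 for Tnfrsf22 and 0.18 for Tnfrsf21. Ngfr, the neurotrophin receptor, had 3.31 and 3.84 in CLP_RAGhigh and 3.49 and 3.19 in CLP_RAGlow, a difference of 0.23 ± 0.27, with 2 further probe sets at -0.06 and -0.09. Tnfrsf25, the receptor DR3, lay between 2.96 and 3.40. Tnfrsf21, the receptor DR6, was the only gene of these 7 with means above the median of all probe sets, at 7.49 and 6.44 against 6.81 and 6.79. Its extremes were both CLP_RAGhigh arrays. Decoy and signalling receptors of TRAIL are related in sequence, and 1 probe set annotated to both Tnfrsf22 and Tnfrsf23 was left out.

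The death ligands gave no difference that stood above the spread. Fasl had 4.72 and 2.66 in CLP_RAGhigh and 2.29 and 3.87 in CLP_RAGlow, so 1 array of each group was high. Its difference of 0.61 ± 0.79 turned to -0.42 without CLP_RAGhigh replicate 1 and to -0.18 without CLP_RAGlow replicate 1. Tnfsf10, which encodes TRAIL, lay between 6.66 and 7.18 on all arrays, with a difference of -0.13 ± 0.38. The standard error over the 36 genes ran from 0.13 to 0.94, the largest for Tnfsf11 and close to a difference of 1 log2 unit.

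Receptors and ligands of costimulation, which act between activated T cells and antigen-presenting cells, also overlapped with 1 exception. That was Tnfrsf18 (GITR), at 6.18 and 6.16 in CLP_RAGhigh and 6.12 and 5.81 in CLP_RAGlow, with a difference of 0.20 ± 0.35 (limma, adjusted p = 1). Tnfrsf4 (OX40) lay between 6.14 and 6.59 on all arrays, with a difference of -0.18. Tnfrsf8 (CD30) and Tnfrsf9 were dim in both groups, with differences of -0.15 and 0.18. Of the ligands, Tnfsf9 had 3.91 and 3.23 against 3.57 and 3.07, a difference of 0.25 ± 0.32, and Tnfsf4 and Tnfsf8 differed by -0.04 and -0.08.

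RANK and its ligand, known from bone resorption and lymph node formation, differed in how their arrays were spread. The ligand gene Tnfsf11 had 6.0005 and 3.98 in CLP_RAGhigh and 5.90 and 3.67 in CLP_RAGlow. The spread was within the groups, with an SD of 1.43 and 1.58, and the arrays numbered 1 were high in both. The difference between the groups was 0.20 ± 0.94, and a second probe set lay between 3.17 and 3.57. The receptor gene Tnfrsf11a had 4.57 and 4.64 against 4.26 and 4.34, without overlap, and a difference of 0.31 ± 0.27 (limma, adjusted p = 1). Its other probe set gave -0.89, where CLP_RAGlow replicate 1 was high, and the average of both was -0.29. Tnfrsf12a, the receptor of TWEAK, had 4.79 and 5.53 against 6.09 and 5.08 and overlapped, and Tnfrsf19 (TROY) lay between 3.59 and 3.92 on all arrays.

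The genes through which these receptors signal were taken from a list of 55, of which 48 were measured. It holds adaptors, ubiquitin ligases, kinases, NF-kB subunits, regulators and further superfamily genes. The NF-kB subunit gene Nfkb1, the kinase gene Chuk, Traf3 and Ripk1 were among those not measured. None passed after adjustment with limma. Before adjustment, 4 of 48 (8.33%) were higher in CLP_RAGhigh at p under 0.05, where the share over all genes was 2.35%, and 1 (2.08%) was lower, where it was 2.94%. The 4 were Ikbkb, Traf4, Map3k5 and Map3k14, and the 1 was Traf5. When all probe sets of a gene were averaged, 0 were higher and 1 was lower. Without CLP_RAGlow replicate 1 there were 0 higher and 2 lower, without CLP_RAGlow replicate 2 there were 2 higher and 0 lower, without CLP_RAGhigh replicate 1 there were 2 higher and 3 lower, and without CLP_RAGhigh replicate 2 there were 4 higher and 0 lower. Over all 18193 genes the same fits gave 211 higher and 328 lower, 304 and 354, 805 and 829, and 649 and 681, in that order, against 428 and 535 with all arrays. The median difference was -0.026 over the 48 genes.

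Ikbkb, which encodes the IKK-beta kinase, had log2 intensities of 9.81 and 9.32 in CLP_RAGhigh and 8.12 and 8.46 in CLP_RAGlow. Both CLP_RAGhigh arrays were higher, with a difference of 1.28 ± 0.31 (limma, adjusted p = 0.703). Its 4 other probe sets gave differences from -0.16 to 0.12, and the average of all 5 was 0.24. Those 4 were much dimmer, with means of 2.43 to 5.69 against 8.93 for the probe set used. The difference is thus that of the brightest probe set alone. Map3k14, which encodes NIK, had 6.25 and 5.76 against 4.98 and 5.17, a difference of 0.93 ± 0.36 (limma, adjusted p = 0.928), and its other probe set gave 0.01. The stress kinase gene Map3k5 (ASK1) differed by 0.82 ± 0.28, with a second, dimmer probe set at 0.15.

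Of the TRAF adaptors, Traf5 had 6.35 and 5.40 in CLP_RAGhigh and 7.20 and 7.03 in CLP_RAGlow. Both CLP_RAGlow arrays were higher, and the difference was -1.24 ± 0.44 (limma, adjusted p = 0.899), with a dim second probe set at -0.23. The difference was -0.77 without CLP_RAGhigh replicate 2. Traf4 had 4.54 and 4.73 against 3.88 and 3.87, a difference of 0.76 ± 0.26 that was 0.29 with the offset of 32. Traf1, itself an NF-kB target, had 2.77 and 2.41 against 2.91 and 4.28, where CLP_RAGlow replicate 2 alone was high, and its second probe set gave 0.11.

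Of 9 NF-kB subunits and inhibitors none had an unadjusted limma p under 0.05. The groups overlapped in 5 of the 9, and over all genes in 12531 of 18193. Relb, the subunit of the alternative branch, had 5.12 and 2.998 in CLP_RAGhigh and 2.85 and 2.55 in CLP_RAGlow, with replicate 1 of CLP_RAGhigh alone above the median of all probe sets. The difference of 1.36 ± 0.66 was 0.30 without that array, which is the array with high Fos. Rel, the subunit prominent in lymphocytes, had 4.72 and 3.52 against 4.37 and 5.97 and overlapped, with a difference of -1.06 ± 0.65 that was -0.26 without CLP_RAGlow replicate 2. Nfkbid, a nuclear regulator of NF-kB, differed by -0.81 ± 0.45 without overlap, and by -0.30 without CLP_RAGhigh replicate 2 and -1.31 without CLP_RAGhigh replicate 1. Cflar, which encodes the caspase-8 inhibitor FLIP, differed by 0.83 ± 0.51 with overlap and by 0.21 without CLP_RAGhigh replicate 1. Its 4 other probe sets gave -0.87 to 0.80, and the average of all 5 was 0.18. The part of the immediate early response in Relb and Cflar was not tested. The inhibitor gene Nfkbia, a quick target of NF-kB, lay between 11.41 and 11.77 on all 4 arrays. Its 4 other probe sets gave higher CLP_RAGhigh means, by 0.20 to 0.30. Tnfaip3, another such target, lay between 6.91 and 7.41, and its second probe set gave 0.36.

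**Figure D3:**
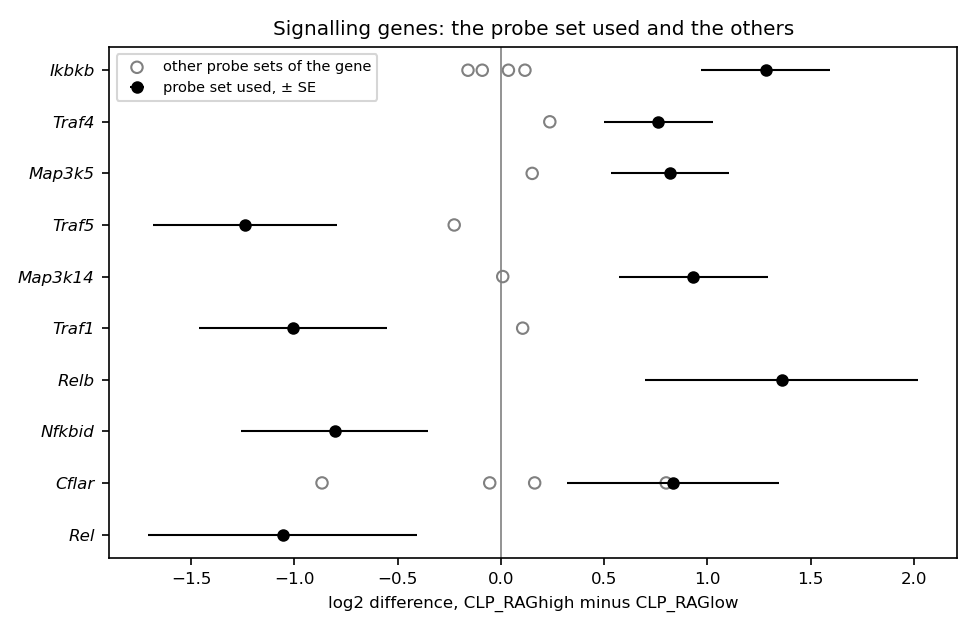
Log2 difference, CLP_RAGhigh minus CLP_RAGlow (x axis), of the 10 signalling genes with the smallest limma p, with filled points and bars of 1 standard error for the probe set used and open points for the other probe sets of the gene. For Ikbkb the probe set used lies at 1.28 and the other 4, all dimmer, between -0.16 and 0.12.

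**Figure D4:**
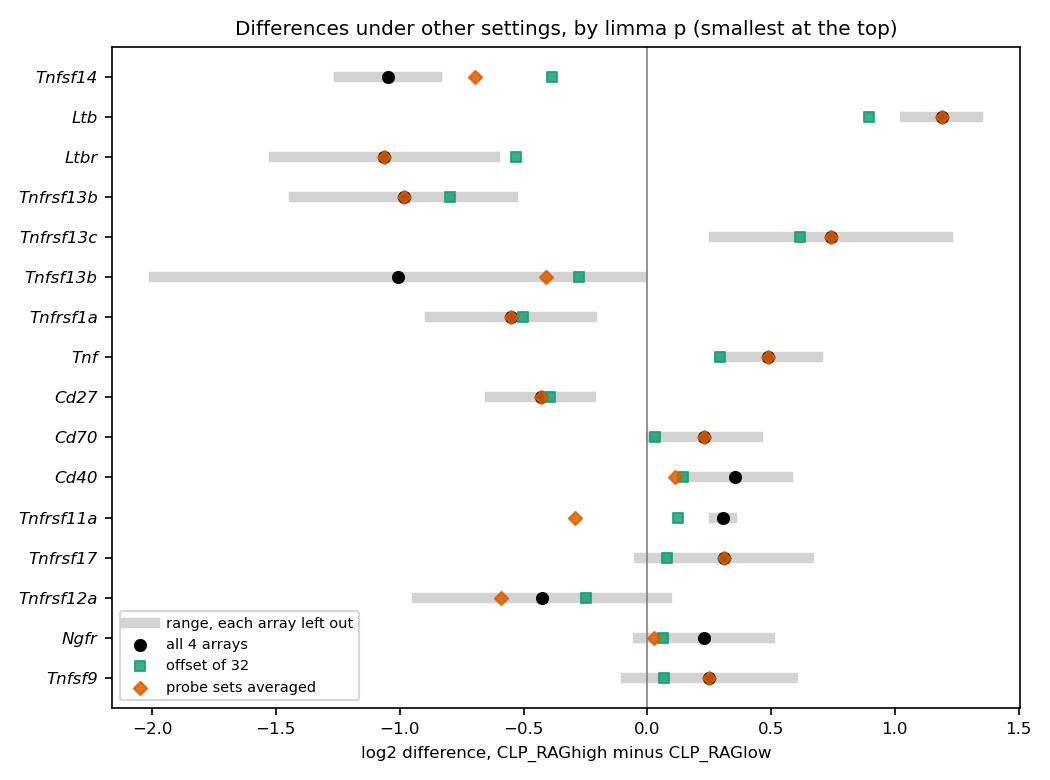
Log2 difference, CLP_RAGhigh minus CLP_RAGlow (x axis), of the 16 superfamily genes with the smallest limma p, over all 4 arrays (black), with an offset of 32 (green squares) or with probe sets averaged (orange diamonds), and the range when each array is left out (grey bars). Ltb, Ltbr and Tnfsf14 keep their direction under each of these settings. The groups do not overlap for these genes, so the offset or leaving out an array cannot reverse them. Ltb and Ltbr have only 1 probe set each. Tnfsf13b reaches -0.021, and Tnfrsf11a turns to -0.29 with probe sets averaged.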

How the data were processed

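The deposited values are intensity values per probe set of Affymetrix MOE430_2 arrays, computed by the authors by RMA, per the labels and the series design text. RMA corrects background, normalizes between arrays and summarises probes. The software and its version: not given in the sources used here. The scale was linear (highest value 19892.5), and tests used log2. No detection calls were used.

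Of 45101 probe sets, the annotation names 1 gene for 34945, several for 932 and none for 9160, and 64 are controls. Those with 1 gene gave 18193 genes, by the probe set with the highest mean. Array medians were 14.5 to 14.8. The ratio of 3' to 5' control probe sets, a measure of RNA quality, was 9.62 to 24.5 for Actb and 10.6 to 20.0 for Gapdh. Both were highest on CLP_RAGlow replicate 2. Ltbr, Tnfrsf13b, Tnfsf13b, Traf1, Rel and, by a small margin, Nfkbid were also highest on that array. The part of RNA quality in their values was not tested.

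Groups were compared with limma 3.58.1 in R 4.3.3 (eBayes with an intensity trend, two-sided, Benjamini-Hochberg over all genes, threshold 0.05), with 2 residual and 3.75 prior degrees of freedom. The script was tested on simulated data. The replicate number as a block was an alternative, since the labels do not say what it marks. Values on each array are given for the 16 superfamily genes with the smallest p and any with a mean of at least 8, and for others where they show the spread. Of the signalling genes the 10 with the smallest p are described, and Nfkbia and Tnfaip3 were added after their values were seen. Genes and lists were chosen with earlier results of these data known. Promoter sequences are from RefSeq (GRCm38.p6), matched by symbol for 30 of 39 genes. Figures were drawn with matplotlib 3.10.9.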

Additional observations from a re-analysis of the deposited data

How the results depend on the processing

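No superfamily gene had an adjusted limma p under 0.05 under any of the 11 alternatives run. Over all genes, where the main count was 0 in each direction, 2 genes were higher in CLP_RAGhigh with probe sets averaged, 1 without dim genes, 2 with 1 lower after quantile normalization, and 5 with 2 lower with the replicate block. The block rests on a number that was not shown to pair the arrays: deviations of same-numbered arrays from their group means correlated at -0.025 over 18193 genes, and the block called 0 superfamily genes.

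The median difference of the superfamily, 0.15, was 0.029 with the offset of 32, 0.029 with probe sets averaged, 0.055 without probe sets marked as shared, and -0.021 to 0.099 when 1 array was left out. It therefore has no stable direction. In those fits a lone array is assumed to vary like the other group. Tnfrsf11a turned to -0.29 with probe sets averaged. Leaving out 1 array gave -0.036 to 0.49 for Ngfr, -0.032 to 0.65 for Tnfrsf17, -0.93 to 0.080 for Tnfrsf12a and -0.087 to 0.59 for Tnfsf9. The other 11 of 16 genes with full values, and all 10 signalling genes described, kept their sign under every alternative that could be run. This was largely fixed in advance. Leaving out an array cannot reverse groups that do not overlap, and the block and the fit without intensity trend leave every difference unchanged. Of the other 20 superfamily genes, 4 to 8 changed sign when an array was left out. Without dim genes, 19 of 36 remained to be tested. Over the alternatives the adjusted p was 0.551 to 1 for Ltb, 0.547 to 1 for Tnfsf14 and 0.567 to 1 for Ltbr. Of 15 superfamily genes with several probe sets, 6 had them in 1 direction and 9 did not.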
